A study of Rattus norvegicus with 72 samples.

Results

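The major histocompatibility complex (MHC) class II genes described here are Cd74, RT1-Da, RT1-Ba, RT1-Db1 and RT1-Bb of the rat. They were taken as all array probes named for these 5 genes by symbol or accession. This gave 10 probes of 41012, and 5 genes of the 15938 that could be named. Cd74 was read by 1 probe, RT1-Da, RT1-Ba and RT1-Bb by 2 each, and RT1-Db1 by 3. All 10 probes passed the filter on dim probes, as did 40984 of the 41012.

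Class II molecules are pairs of an alpha and a beta chain that present peptides from proteins taken up by a cell to CD4+ T cells. RT1-Da and RT1-Ba encode alpha chains, and RT1-Db1 and RT1-Bb encode beta chains. RT1-D is the rat counterpart of human HLA-DR, and RT1-B that of HLA-DQ. Cd74 encodes the invariant chain, a chaperone that fills the peptide groove until the complex reaches the endosome. Dendritic cells, macrophages and B cells carry class II constitutively, and interferon gamma induces it in many other cells, fibroblasts included. Ciita, the class II transactivator, acts on these promoters through factors bound to short boxes named X and Y.

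RNA came from the medial collateral ligament, which braces the knee on its inner side. The animals were adult male rats of the outbred Sprague-Dawley stock. In 1 set of animals the ligament was severed, and in the sham animals both knees were operated on with the ligament left intact. Both sets received buprenorphine and isoflurane, and tissue was taken on day 1, 2, 4, 7, 10 or 14. Each such group held 5 samples, except 3 on day 7. Further groups were 5 unmanipulated ligaments (neither operated nor drugged), 5 columns of fibroblasts grown out of ligaments and passaged 3 to 7 times, and a universal rat reference RNA in 3 columns of each dye. The fibroblast columns could not be tied to a passage, and passages are not independent cultures, so tests with them measure the spread between these columns only. Most severed and sham samples shared an array, 1 in each dye. On days 1 and 4 severed ligament was in Cy3, and from day 7 to day 14 it was in Cy5. For day 2 the file headers give Cy5 and the labels Cy3, so day 2 carries that doubt for dye and for group. Unmanipulated ligament and fibroblasts were in Cy5.

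Values are intensities after quantile normalisation, with a floor of 50. A spot is called above background if it exceeds the 95th percentile of the negative controls of its own column. The share of spots above background ranged from 10.75% to 86.45% over the columns kept. 4 columns were misread throughout and left out, namely severed day 4 replicates 1 and 4, sham day 4 replicate 1 and severed day 7 replicate 2. 13 others were misread in part, and those parts were left out. In unmanipulated ligament 8 of 8 measured ligament and tendon markers were above background in most samples, among them Tnmd and Mkx, which were never above background in the fibroblast columns. Ligament samples also held 6 of 6 skeletal muscle and 5 of 5 red cell markers above background in unmanipulated tissue, with summed intensities of 45820 to 191178 and of 107574 to 159080. In whole tissue, fewer cells of a type and less RNA per cell cannot be told apart.

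The 5 promoters are shown because the X and Y boxes are the element through which the class II genes are known to be controlled together. Each run covers 250 bases before to 50 bases after the RefSeq start, 5′ to 3′ on the gene's own strand, in assembly GRCr8. Capitals mark the X box letters NGCAAC and the Y box letters GATTGG, searched on both strands.
Cd74, chr18:56526956-56527255, plus strand: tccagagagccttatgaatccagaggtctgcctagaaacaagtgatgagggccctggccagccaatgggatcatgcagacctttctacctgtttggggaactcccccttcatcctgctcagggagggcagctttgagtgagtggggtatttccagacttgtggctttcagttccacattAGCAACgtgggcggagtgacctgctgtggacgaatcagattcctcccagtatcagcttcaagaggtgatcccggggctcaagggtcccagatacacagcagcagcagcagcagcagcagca
RT1-Da, chr20:4515165-4515464, plus strand: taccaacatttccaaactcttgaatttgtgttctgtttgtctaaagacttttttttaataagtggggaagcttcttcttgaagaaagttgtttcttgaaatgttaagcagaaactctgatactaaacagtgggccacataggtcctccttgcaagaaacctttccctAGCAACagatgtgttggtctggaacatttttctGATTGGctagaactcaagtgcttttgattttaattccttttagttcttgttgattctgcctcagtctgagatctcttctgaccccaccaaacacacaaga
RT1-Ba, chr20:4576807-4577106, plus strand: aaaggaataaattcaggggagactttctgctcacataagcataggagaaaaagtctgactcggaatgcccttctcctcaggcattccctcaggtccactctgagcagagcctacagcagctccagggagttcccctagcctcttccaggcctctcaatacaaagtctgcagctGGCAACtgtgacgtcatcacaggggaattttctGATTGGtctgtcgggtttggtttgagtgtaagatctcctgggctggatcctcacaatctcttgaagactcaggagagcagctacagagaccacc
RT1-Db1, chr20:4560113-4560412, minus strand: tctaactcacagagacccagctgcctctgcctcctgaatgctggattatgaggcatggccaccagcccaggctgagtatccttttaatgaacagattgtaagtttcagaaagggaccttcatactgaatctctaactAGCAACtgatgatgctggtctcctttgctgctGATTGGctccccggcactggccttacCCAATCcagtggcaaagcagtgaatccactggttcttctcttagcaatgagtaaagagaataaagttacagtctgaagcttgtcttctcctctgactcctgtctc
RT1-Bb, chr20:4604069-4604368, minus strand: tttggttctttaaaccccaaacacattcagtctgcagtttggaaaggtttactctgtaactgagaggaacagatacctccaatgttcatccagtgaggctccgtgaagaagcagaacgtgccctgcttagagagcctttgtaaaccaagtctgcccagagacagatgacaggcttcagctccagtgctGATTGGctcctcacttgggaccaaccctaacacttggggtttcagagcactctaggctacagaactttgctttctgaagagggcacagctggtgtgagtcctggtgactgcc
The Y box letters were found in 4 of the 5 promoters and in 14.8% of all 33469 rat promoters of this length. They began at position -50 in RT1-Da, -44 in RT1-Ba, -62 in RT1-Bb, and -81 in RT1-Db1, which held a second copy on the other strand at -55. The X box letters were found in 4 of 5 promoters and in 35% of all promoters, with AGCAAC at -71 in Cd74, -83 in RT1-Da and -113 in RT1-Db1 and GGCAAC at -77 in RT1-Ba. In RT1-Da and RT1-Ba the X letters began 33 bases before the Y letters, and in RT1-Db1 32 bases before them. A pair on 1 strand with starts 28 to 36 bases apart, a range chosen after these promoters were seen, was held by 3 of the 5 and by 51 of all 33469 promoters (0.152%). Of 3 other class II promoters searched, RT1-DOa and RT1-DOb, subunits of a class II-like modulator of peptide loading, also held it, with distances of 33 and 30. RT1-DMa held the Y letters at -65 and no X letters. A match is a description of letters and not of binding, which was not measured.

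Intact ligament carried class II RNA, and each gene except RT1-Ba had a probe above background in all 5 unmanipulated samples. For Cd74 (probe A_44_P549494) the unmanipulated samples read 3011, 2450, 4367, 3618 and 4430. For RT1-Da (A_44_P991532) they read 1640, 1848, 3745, 2702 and 4081. No sample stood apart from the others on either probe. For RT1-Db1 (A_44_P130513) the same samples read 1313, 1019, 1690, 869 and 2323, and for RT1-Bb (A_44_P500803) 242, 562, 309, 383 and 178. RT1-Ba (A_44_P194167) read 124, 50, 243, 143 and 143, and of these only replicate 3, at 243, was above background.

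Over all ligament samples read, whatever their operation, A_44_P130513 for RT1-Db1 was above background in 55 of 56 (98.21%), with a median of 1901.5. A_44_P500803 for RT1-Bb was above background in 55 of 57 (96.49%), and A_44_P991532 for RT1-Da in 49 of 52 (94.23%). The second RT1-Da probe, A_44_P367688, was above background in 52 of 57 (91.23%), and A_44_P130516 for RT1-Db1 in 49 of 56 (87.5%). These 5 probes were therefore read in nearly all ligaments. A_44_P549494 for Cd74 was above background in 41 of 55 (74.55%) and the second RT1-Bb probe, A_44_P552452, in 39 of 57 (68.42%). A_44_P194167 for RT1-Ba reached 26 of 53 (49.06%). The remaining RT1-Db1 probe, A_44_P139882, did so in 8 of 57 (14.04%), and the second RT1-Ba probe, A_44_P128248, in 5 of 53 (9.434%). RT1-Ba and A_44_P139882 thus give little more than a bound. RT1-Db1 has a close paralogue in RT1-Db2, and class II genes are polymorphic in outbred rats, so which copies or alleles a probe reads is uncertain.

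**Figure D1:**
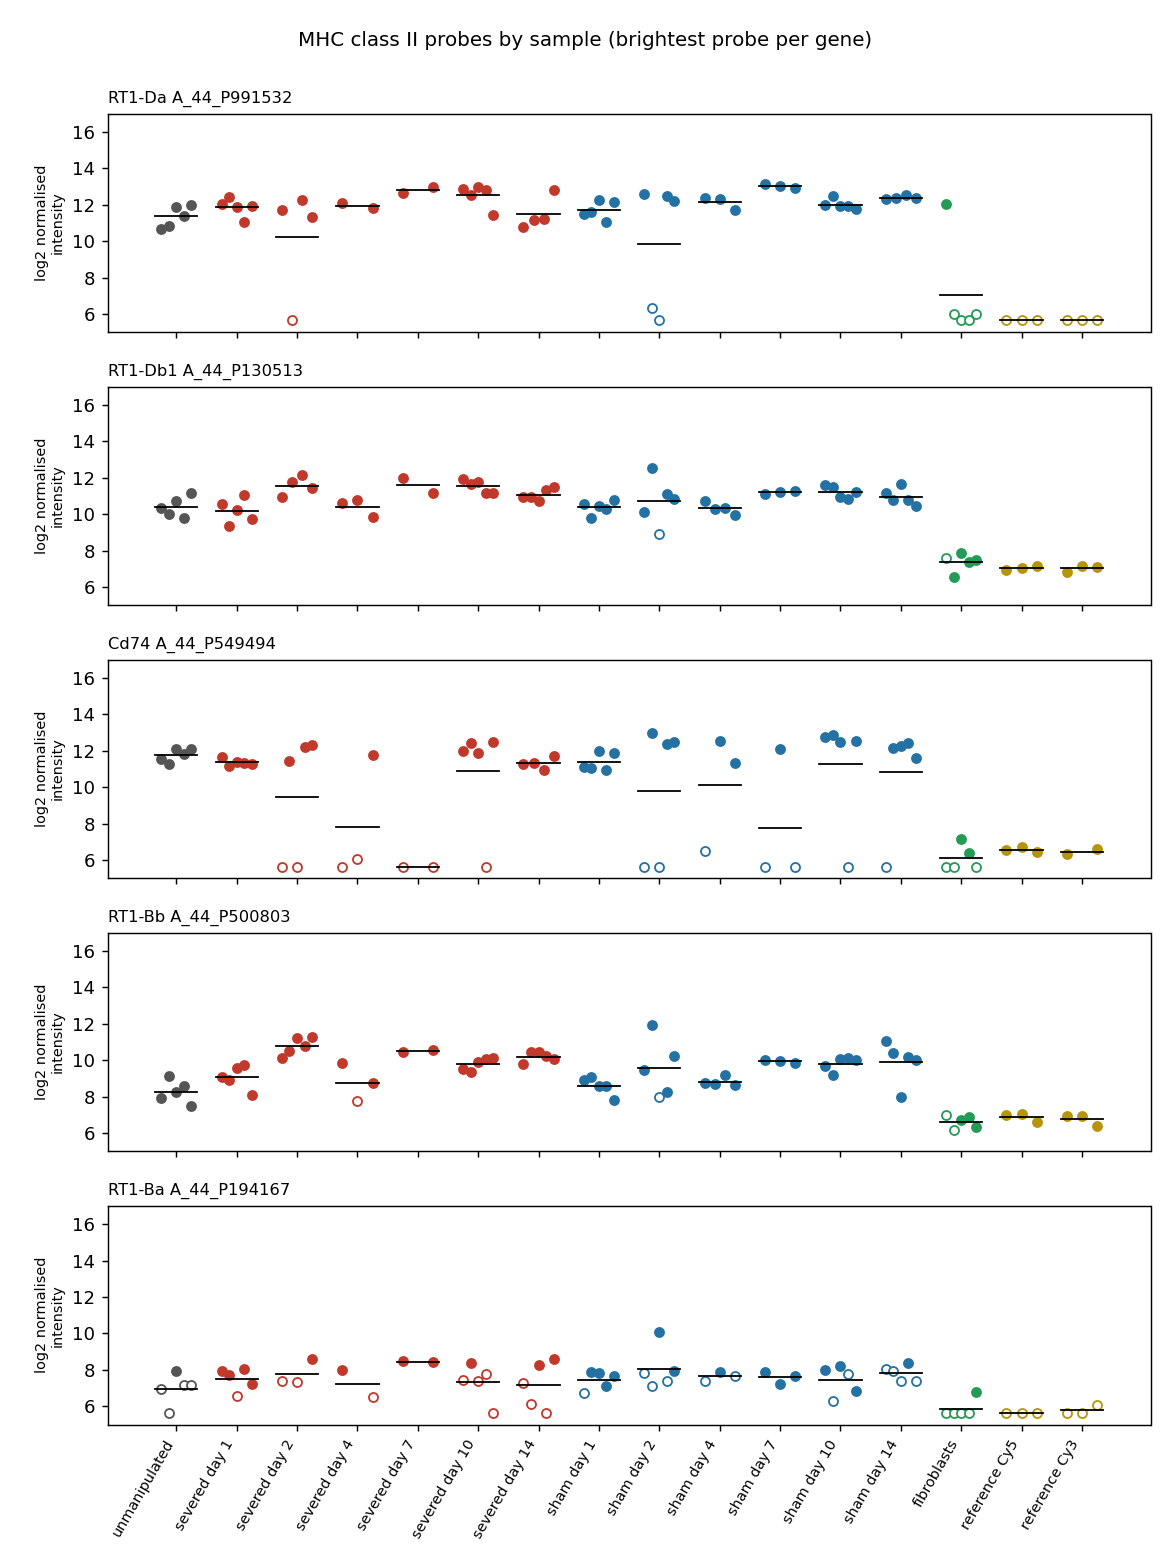
Log2 normalised intensity (y axis) of the brightest probe of each MHC class II gene in each column, by group (x axis). Filled points are above background, open points are not, and the black line is the group mean. Fibroblasts and reference RNA lie below nearly all ligament samples for RT1-Da, RT1-Db1 and RT1-Bb, except 1 fibroblast column for RT1-Da at 4272. For Cd74 they lie below most ligament samples, but 12 of 55 ligament samples are at the floor of 50.

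Cultured fibroblasts against unmanipulated ligament asked what the tissue expresses beyond the cells that grow out of it. Cd74, RT1-Da, both brighter RT1-Db1 probes and RT1-Bb A_44_P500803 were lower in the fibroblasts, so that 5 of 10 probes fell and none rose. Over all probes tested, 4.97% were lower and 5.03% higher. All 10 differences were negative, with a median of -1.81 on the log2 scale against 0.0154 over all probes. The 10 probes are not independent, since several read 1 gene.

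For Cd74, the invariant chain, the fibroblast columns read 50, 50, 146, 84 and 50, against 2450 to 4430 in unmanipulated ligament, and the groups did not overlap. In column 1 the stretch of array around the Cd74 spot was misread, and the spot 2 positions to the left, another probe, read 41874. Column 1 also had the lowest share of spots above background of the columns kept (10.75%). Without it the mean log2 level of Cd74 in fibroblasts was 6.215 (n = 4), against 11.768 in unmanipulated ligament. The log2 difference was -5.67 ± 1.27 (SE, n = 5 and 5, adjusted p = 0.0013 by limma with Benjamini-Hochberg adjustment over all probes, as in every test below). 2 of the 5 fibroblast columns were above background, and the reference RNA read 80 to 107.

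Of the alpha chains, RT1-Da A_44_P991532 read 4272 in fibroblast column 1 and 50 to 64 in the other 4, none of which was above background. The ligaments read 1640 to 4081, so column 1 lay above all of them and the other 4 columns below. The difference was -4.29 ± 0.91 (SE, n = 5 and 5, adjusted p = 0.00065). The second RT1-Da probe, A_44_P367688, read 8856 in fibroblast column 1 and 50 to 129 in the others, against 597 to 1003 in ligament. Its difference of -1.96 ± 0.70 (SE, n = 5 and 5) missed the threshold by limma (adjusted p = 0.062), and without column 1 it was -3.35 (adjusted p = 7.9e-07). In column 1 the stretch of array around both RT1-Da spots was misread, as around Cd74. RT1-Ba A_44_P194167 read 50 in 4 fibroblast columns and 112 in 1, and its difference of -1.09 ± 0.53 was not past the threshold (n = 5 and 5, limma adjusted p = 0.21). A_44_P128248, the other RT1-Ba probe, was above background in 0 of 5 fibroblast columns and in 1 of 5 ligaments, and its difference was -0.58 (n = 5 and 5, limma adjusted p = 0.56).

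Of the beta chains, RT1-Db1 A_44_P130513 read 196, 94, 232, 165 and 180 in fibroblasts against 869 to 2323 in ligament, with no overlap. It gave the smallest error of the 10 probes, with a difference of -3.03 ± 0.38 (SE, n = 5 and 5, limma adjusted p = 1.5e-08). A_44_P130516 read 50 to 175 against 850 to 1368, again with no overlap, a difference of -3.27 ± 0.63 (SE, n = 5 and 5, limma adjusted p = 0.00013). Both probes were above background in 4 of 5 fibroblast columns, so a low RT1-Db1 signal was read there. Reference RNA read 112 to 143 and 145 to 229 on them.

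RT1-Bb A_44_P500803 read 128, 73, 105, 117 and 80 in fibroblasts against 178 to 562 in ligament, without overlap. The difference of -1.66 ± 0.47 (SE, n = 5 and 5, limma adjusted p = 0.013) was lost without unmanipulated replicate 2, the highest ligament value, at -1.44 (adjusted p = 0.057). It was also lost with all 72 columns kept (-1.31, adjusted p = 0.084), with flagged spots missing (-1.11, adjusted p = 0.22) and in the series matrix (-1.16, adjusted p = 0.10). With a floor of 200 it was -0.67 (adjusted p = 0.55), since 200 lies above every fibroblast value. The other RT1-Bb probe, A_44_P552452, read 44115 in fibroblast column 1 and 50 to 84 in the rest, and its difference of -1.575 ± 1.45 was not past the threshold (n = 5 and 5, limma adjusted p = 0.60). A_44_P139882 for RT1-Db1 differed by -0.68 ± 0.43 and was near background on both sides (n = 5 and 5, limma adjusted p = 0.39).

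**Figure D2:**
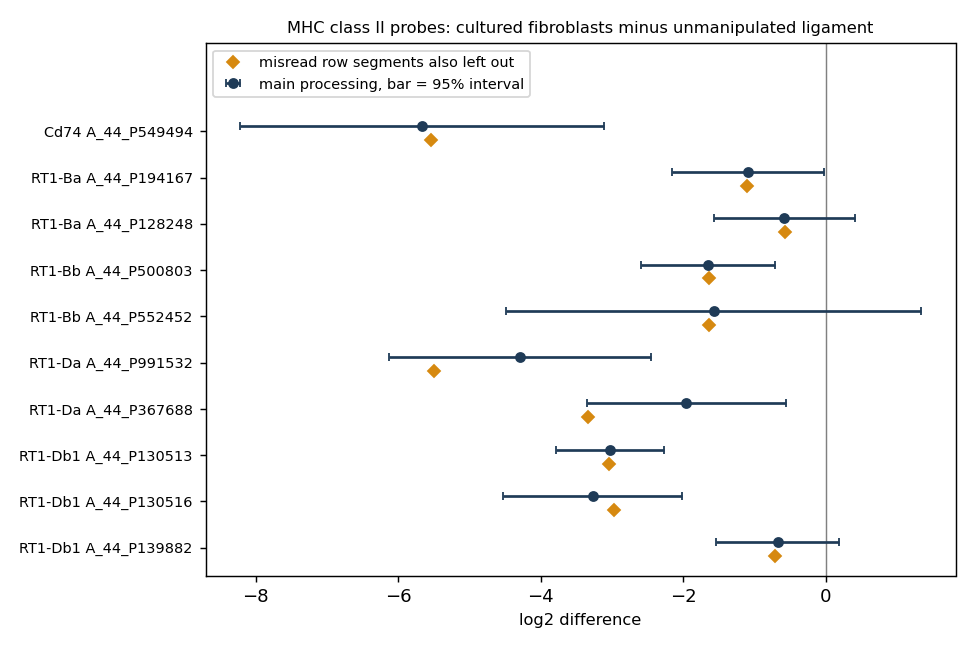
Log2 difference, fibroblasts minus unmanipulated ligament (x axis), for the 10 MHC class II probes (y axis). Circles with 95% intervals are the main processing and diamonds leave out misread stretches of array rows as well. All 10 circles lie below 0, and both RT1-Da probes lie lower once fibroblast column 1 is left out there (-5.50 and -3.34).

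Genes that act with class II in antigen presentation were counted by their brightest probe in the same comparison. Of 10 genes of class II peptide loading, 2 were lower and none higher. One was Ctss, the protease that cleaves the invariant chain, with a difference of -5.87 ± 0.28 (n = 5 and 5, limma adjusted p = 2.6e-24). RT1-DMa, a subunit of the peptide exchanger, differed by -0.91 ± 0.54 (n = 5 and 5, limma adjusted p = 0.34) and by -0.10 (adjusted p = 0.94) with misread row stretches left out. RT1-DMb was not measured. Of 7 genes of class II transcription none passed the threshold. Ciita was never above background in unmanipulated ligament or fibroblasts, so its difference of -0.26 ± 0.495 compares dim values (n = 5 and 5, limma adjusted p = 0.83). Of 9 genes of class I presentation 3 were lower and 1 higher, with B2m, the light chain of class I, at -3.37 ± 0.225 (n = 5 and 5, limma adjusted p = 5e-18). Of 13 genes of the interferon gamma axis none passed. None of 3 co-stimulation genes passed.

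Some markers of cells that could carry class II were lower as well. Of 5 pan-leukocyte markers 3 were lower in fibroblasts, and their summed intensity was 1693 to 2009 against 25001 to 33278 in unmanipulated ligament. Ptprc, the leukocyte surface phosphatase CD45, differed by -1.45 ± 0.54 (n = 5 and 5, limma adjusted p = 0.079). With misread row stretches left out it passed (adjusted p = 0.044), and 5 of 5 pan-leukocyte markers were lower. Of 12 macrophage markers 6 were lower, with sums of 2388 to 45843 against 12905 to 76201, and Mrc1 and Itgam were never above background in the fibroblasts. Cd68, a lysosomal protein of macrophages, differed by -0.85 ± 0.78 (n = 5 and 5, limma adjusted p = 0.60), and by -2.17 (adjusted p = 0.0058) with misread row stretches left out. Dendritic, B and T cell markers were lower for 1 of 5, 1 of 5 and 3 of 9 genes. Neutrophil markers were lower for 2 of 8. The part of these cells in the class II difference was not tested. Blood and muscle RNA moved as well: 5 of 5 red cell and 6 of 6 muscle markers were lower, as were 4 of 8 ligament and 2 of 6 endothelial markers. The listed genes with the widest differences were Tnnc2 (-9.06), Hbb (-8.83), Alas2 (-7.95), Comp (-7.28), Hba-a1 (-7.26) and Ckm (-7.23), of fast muscle, red cells and cartilage-like matrix.

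Severed ligament of days 7, 10 and 14 was compared with unmanipulated ligament, both in Cy5, to ask whether class II RNA had changed late after injury. These comparisons share the same 5 unmanipulated samples. RT1-Bb A_44_P500803 was higher on day 14, and no other probe passed the threshold on any of these days. That is 1 of 10 probes on day 14, when 1.51% of all probes were higher and 1.61% lower. On day 10, 1.23% were higher and 2.44% lower, and on day 7, 0.124% and 0.0878%, with 0 of 10 class II probes on either day. At an unadjusted p under 0.05 there were 4 of 10 class II probes on day 7 (3 higher and 1 lower), 2 on day 10 (both higher) and 2 on day 14 (1 higher and 1 lower). Of all probes 4.96%, 17.9% and 16.5% had such a p, so that the counts of days 10 and 14 were near the background. The day 7 count rests on 2 severed samples, and probes of 1 gene are not independent. Its lower probe was Cd74, whose spots are described below. These severed samples read 6498 and 7914 on RT1-Da A_44_P991532, 2306 and 4125 on RT1-Db1 A_44_P130513, and 340 and 358 on RT1-Ba A_44_P194167. Of the 10 day 7 differences 6 were positive and 4 negative.

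RT1-Bb A_44_P500803 read 905, 1401, 1381, 1222 and 1072 in the severed ligaments of day 14, all above the highest unmanipulated value of 562. The log2 difference was 1.93 ± 0.47 (SE, n = 5 and 5, higher in 5 of 5, limma adjusted p = 0.011), a 3.81-fold difference. On day 10 the values were 727, 662, 978, 1093 and 1126, again without overlap. The difference of 1.53 ± 0.47 did not pass the threshold (SE, n = 5 and 5, limma adjusted p = 0.050) and passed it without unmanipulated replicate 2 (1.75, adjusted p = 0.041). On day 7 both usable samples, at 1401 and 1495, also lay above every unmanipulated sample, with a difference of 2.22 ± 0.62 (SE, n = 2 and 5, limma adjusted p = 0.16). The day 14 call was lost with median scaling (1.84, adjusted p = 0.064), with all columns kept whole (1.44, adjusted p = 0.11), with flagged spots missing (0.85, adjusted p = 0.44) and in the series matrix's value table (1.03, adjusted p = 0.18). Its direction was the same under each of these 4.

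Sham ligament of the late days read in the same range on this probe, although in Cy3. It read 1039, 993 and 926 on day 7, then 818, 588, 1084, 1099 and 1046 on day 10, and 2119, 1338, 255, 1176 and 1032 on day 14. Sham and severed ligament of a day therefore overlapped on days 10 and 14. In Cy5, sham ligament of day 1 read 228 to 539 and of day 4 405 to 576, and these overlapped with the unmanipulated samples. Their differences from unmanipulated ligament were 0.32 ± 0.47 (n = 5 and 5, limma adjusted p = 1) and 0.54 ± 0.50 (n = 4 and 5, limma adjusted p = 0.87). Late sham ligament was not tested against unmanipulated ligament, since the dyes differ.

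The second RT1-Bb probe, A_44_P552452, gave another picture in the same ligaments. Among the severed ligaments of day 14 it read 12695, 90, 50, 1135 and 1437, and the difference was -0.05 ± 1.45 (SE, n = 5 and 5, limma adjusted p = 0.99). In unmanipulated ligament it read 1267, 50, 1673, 720 and 1430, so replicate 2, the highest on A_44_P500803 at 562, was at the floor on A_44_P552452. Severed day 2 replicate 3 (2413), severed day 14 replicate 3 (1381) and sham day 2 replicate 2 (3969) were likewise high on the first probe and at 50 on the second. In the other direction, unmanipulated replicate 5 read 178 and 1430, and severed day 4 replicate 3 read 216 and 2022. Another probe, A_43_P16181, described in the file as an RT1-D beta chain of haplotype k and so no member, read 817 and 160 in unmanipulated replicates 2 and 5, the highest and the lowest of that group, as A_44_P500803 did. Over 54 ligament samples, many of which share an array, deviations from the group mean of A_44_P500803 followed those of A_43_P16181, with Pearson r = 0.853 and Spearman rho = 0.866 (permutation p = 1e-05 each, the smallest that 100000 permutations can give, adjusted p = 3e-05 over 3 pairs). They ran against those of A_44_P552452, with r = -0.449 (permutation p = 0.0016, adjusted p = 0.0016) and rho = -0.502 (permutation p = 4e-04, adjusted p = 4e-04). Without the 2 farthest samples r was 0.809 and -0.405, within Cy5 0.802 and -0.503, and within Cy3 0.888 and -0.469. These pairs were chosen after their values were seen. Which gene or allele A_44_P500803 reads was not tested. The values of 12695 and 10644 on A_44_P552452 came from the 2 samples of 1 array, severed and sham day 14 replicate 1, which was misread in part.

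**Figure D3:**
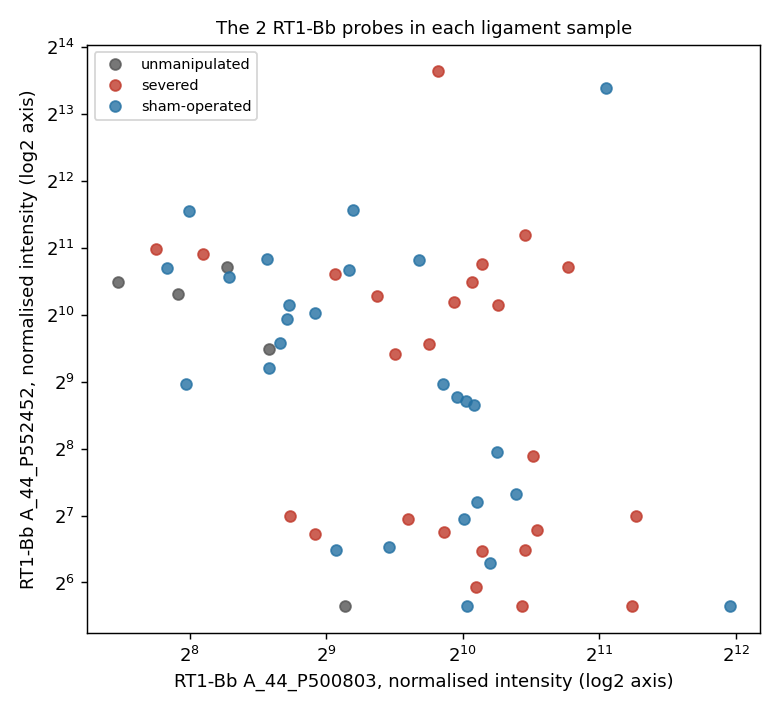
Normalised intensity (log2 axes) of the 2 RT1-Bb probes, A_44_P500803 (x) and A_44_P552452 (y), in each ligament sample. Points do not follow a rising line, and the 5 samples at the floor of 50 on the y axis lie at 562 or above on the x axis.

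RT1-Db1 A_44_P130513 read 3832, 3194, 3508, 2275 and 2299 in the severed ligaments of day 10, and 5 of 5 were above the unmanipulated mean. 2 of them lay below the highest unmanipulated value of 2323. The difference was 1.12 ± 0.38 (SE, n = 5 and 5, limma adjusted p = 0.080), or 1.10 (adjusted p = 0.042) with misread row stretches left out. In that setting 2 of 10 class II probes were called on day 10, the other being A_44_P500803 (1.498, limma adjusted p = 0.018), and 4.4% of all probes. On day 14 it was 0.67 ± 0.38 (n = 5 and 5, limma adjusted p = 0.38). A_44_P130516, for the same gene, gave 0.82 ± 0.63 on day 10 (adjusted p = 0.52) and -0.80 ± 0.63 on day 14 (n = 5 and 5, limma adjusted p = 0.56), so the 2 RT1-Db1 probes differed in sign on day 14. RT1-Da A_44_P991532 read 7542, 5976, 7901, 7193 and 2760 on day 10, of which 4 lay above every unmanipulated sample, with a difference of 1.16 ± 0.91 (n = 5 and 5, limma adjusted p = 0.54). On day 14 it read 1742, 2255, 2368 and 7133 in the 4 samples read, within the unmanipulated range but for 1, and the difference was 0.12 ± 0.965 (n = 4 and 5, limma adjusted p = 0.97). RT1-Ba A_44_P194167 differed by 0.36 ± 0.53 on day 10 and 0.22 ± 0.53 on day 14 (n = 5 and 5, limma adjusted p = 0.78 and 0.89).

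Leukocyte markers held no call upward on day 14. None of 5 pan-leukocyte markers passed the threshold, with sums of 20554 to 29463 against 25001 to 33278, and Ptprc was never above background on that day. Of 12 macrophage markers Aif1 was lower, at -2.20 ± 0.595 (n = 5 and 5, limma adjusted p = 0.025), a call lost with misread row stretches left out (-1.15, adjusted p = 0.050), with sums of 28036 to 39661 against 12905 to 76201. None of 5 dendritic, 5 B cell and 9 T cell markers passed, and Xcr1 and Ms4a1 were among those never above background. The 10 genes of peptide loading, 7 of class II transcription, 13 of the interferon gamma axis and 9 of class I presentation held no call on day 14. The endothelial genes Kdr and Egfl7 were higher, at 1.86 ± 0.53 (n = 4 and 5, limma adjusted p = 0.039) and 1.49 ± 0.27 (n = 5 and 5, limma adjusted p = 4e-04). On day 10, 5 of 6 muscle markers, the macrophage marker Cd14 and Ifngr1, a chain of the interferon gamma receptor, were lower. Cd14 was 1 of 12 macrophage markers and Ifngr1 was 1 of 13 genes of the interferon gamma axis. The neutrophil elastase gene Elane was higher on day 10, at 1.77 ± 0.40 (n = 5 and 5, limma adjusted p = 0.0068), 1 of 8 neutrophil markers. On day 7 the leukocyte marker Cd52 was lower, at -2.69 ± 0.59 (n = 2 and 5, limma adjusted p = 0.027), 1 of 5 pan-leukocyte markers. Ifngr1 was lower as well, at -1.81 ± 0.43 (n = 2 and 5, limma adjusted p = 0.045), 1 of 13 genes of its list. The part of cell content in the RT1-Bb value was not tested.

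The Cd74 spot read near 0 on some arrays and far above background on others. Of 61 ligament columns 19 were not above background for Cd74, and 14 of these lay in a misread row stretch or a column left out. In 9 of the 19, the spot 2 positions to the left, which holds another probe, read 897 to 12073. It read at most 149 in columns where Cd74 was above background and its row stretch was read. Of the 26 arrays with 2 ligament samples, 8 had Cd74 below background in both, 17 above in both, and 1 had both kinds. Both samples of an array, severed and sham, were thus alike in all but 1 array. The 2 usable severed ligaments of day 7 read 50 each on Cd74, and sham day 7 read 50, 4328 and 50. The difference of -6.12 ± 1.68 from unmanipulated ligament on day 7 (SE, n = 2 and 5, limma adjusted p = 0.15) rests on those spots, as does its call with misread row stretches left out (-6.14, adjusted p = 1.8e-06). In that setting A_44_P500803 was called on day 7 as well (2.22, limma adjusted p = 0.028), which made 2 of 10 class II probes against 0.367% of all probes. Where the spot was above background, severed day 10 ligaments gave 4030, 5619, 3747 and 5645 and those of day 14 gave 2481, 2597, 2010 and 3377. In 1 of these 4 on each day the row stretch was misread. The differences from unmanipulated ligament were -0.89 ± 1.27 on day 10 (n = 5 and 5, adjusted p = 0.77) and -0.83 ± 1.34 on day 14 (n = 4 and 5, limma adjusted p = 0.82). With misread row stretches left out they were 0.49 (adjusted p = 0.72) and -0.43 (adjusted p = 0.80).

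**Figure D4:**
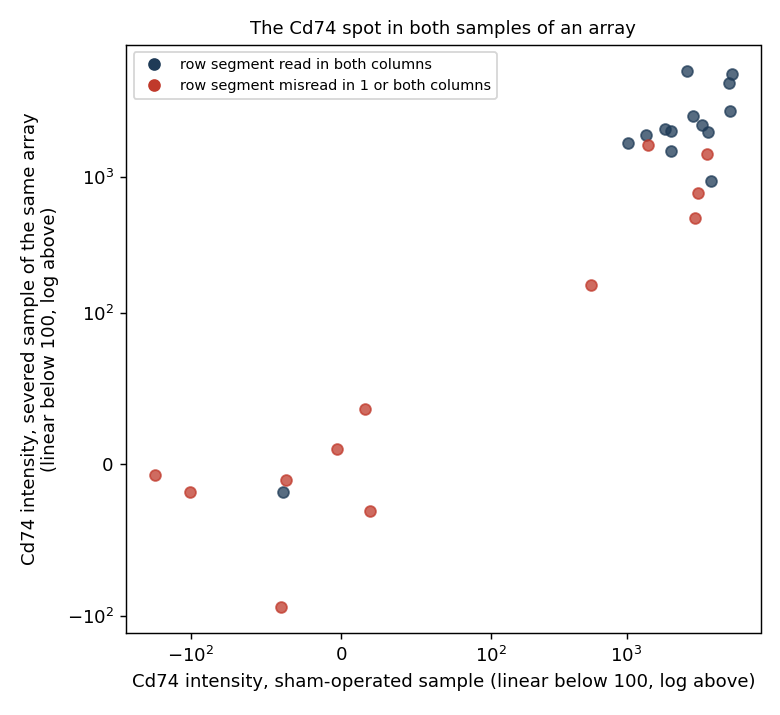
Cd74 intensity before normalisation in the sham sample (x axis) and the severed sample (y axis) of the same array, with axes linear below 100 and logarithmic above. Arrays fall into those with both samples near 0 and those with both samples high, apart from 1 array between them. All but 1 of those near 0 had a misread row stretch in at least 1 column.

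Severed against sham ligament asked what severing adds to the operation. Within a day the 2 operations were in different dyes, so the test was made on the mean of days 1 and 4 and of days 7, 10 and 14, in which a constant dye effect cancels. None of the 10 class II probes passed the threshold by limma, and none had an unadjusted p under 0.05 unless misread row stretches were left out, when Cd74 had one (limma adjusted p = 0.57). Of all probes 4 passed (0.00976%) and 2060 had an unadjusted p under 0.05. The class II differences ranged from -0.90 to 0.25, with a median of -0.00186 against -0.00311 over all probes, and 5 were positive.

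For Cd74 the dye-balanced difference was -0.90 ± 0.66 (SE), with a 95% interval of -2.23 to 0.43, and -0.90 ± 0.313 with misread row stretches left out. RT1-Da A_44_P991532 gave -0.13 ± 0.49, with an interval of -1.11 to 0.86. RT1-Ba A_44_P194167 gave -0.06 ± 0.28, from -0.63 to 0.51. RT1-Db1 A_44_P130513 gave 0.10 ± 0.19, from -0.28 to 0.48, and RT1-Bb A_44_P500803 gave 0.25 ± 0.24, from -0.23 to 0.72. The other RT1-Db1 probes had wider intervals, from -0.4975 to 0.77 for A_44_P130516 and from -0.84 to 0.04 for A_44_P139882. A difference smaller than these intervals was not detectable with this number of arrays.

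Per day, without a test because of the dyes, A_44_P500803 differed by 0.49 ± 0.39 on day 1, by 1.20 ± 0.39 on day 2 and by -0.05 ± 0.48 on day 4. The day 2 difference turned to -0.35 ± 0.467 with misread row stretches left out. Its later differences were 0.56 ± 0.91 (day 7), -0.01 ± 0.39 (day 10) and 0.28 ± 0.39 (day 14). RT1-Db1 A_44_P130513 differed by 0.99 ± 0.34 on day 2 (0.52 with misread row stretches left out) and by -0.18 to 0.40 on the other days. Day 2 is the day whose labels and headers disagree. Its severed ligaments read 1128, 1462, 2413, 1748 and 2468 on A_44_P500803 and its sham ligaments 704, 3969, 252, 312 and 1216, so the groups overlapped. For RT1-Da, A_44_P991532 read 50 in both samples of the array of severed and sham day 2 replicate 3, while A_44_P367688 read 766 and 293 there. None of 40 tests of a change of the severed minus sham difference between days passed the threshold by limma (10 probes in 4 pairs of days, lowest adjusted p = 0.11, 1 with an unadjusted p under 0.05).

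**Figure D5:**
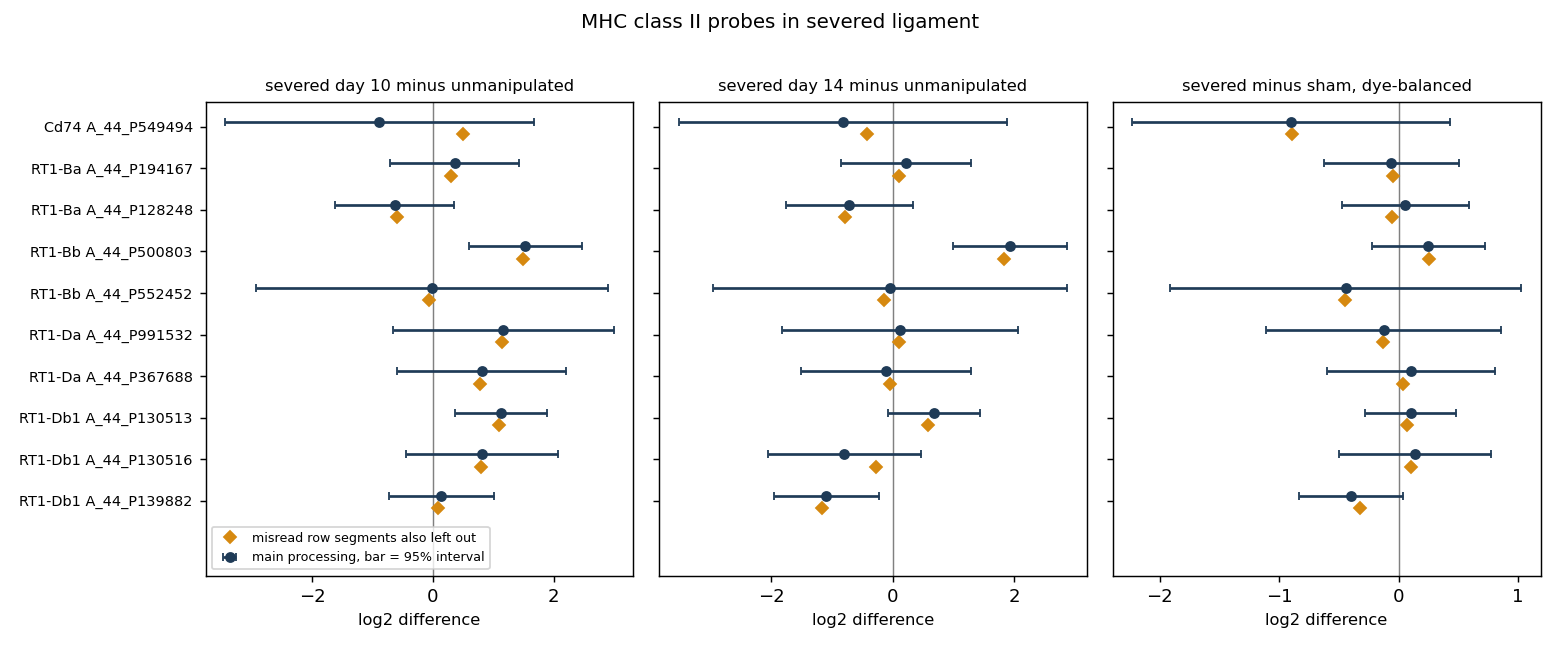
Log2 differences (x axes, with different ranges) of the 10 MHC class II probes (y axis) for severed ligament of day 10 and of day 14 minus unmanipulated ligament, and for the dye-balanced severed minus sham mean. Circles with 95% intervals are the main processing and diamonds leave out misread row stretches. RT1-Bb A_44_P500803 lies at 1.53 and 1.93 in the first pair of panels and at 0.25 in the last.

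Changes between days within an operation were tested within 1 dye. None of the 10 class II probes passed by limma from day 1 to day 4 in severed or sham ligament, or from day 10 to day 14. Over all probes 0.325% and 0.239% passed from day 1 to day 4 in severed and sham ligament, and 1.41% and 3.87% from day 10 to day 14. Unadjusted p values under 0.05 were held by 1, 0, 2 and 2 of the 10 in that order, all lower, and by 9.98%, 9.17%, 13.3% and 16.5% of all probes, so that these counts were near the background. For RT1-Db1 A_44_P130516 the severed ligaments differed by -1.62 ± 0.63 from day 10 to day 14 (n = 5 and 5, limma adjusted p = 0.21) and the sham ligaments by -1.31 ± 0.63 (adjusted p = 0.28). In severed ligament it read 1235 to 2329 on day 10 and 135 to 1586 on day 14, with the lowest in the array that was misread in part. For RT1-Da A_44_P367688 sham ligament differed by -1.54 ± 0.70 (n = 5 and 5, limma adjusted p = 0.24), with 725 to 1061 on day 10 and 95 to 897 on day 14. Sham ligament of days 1 and 4 against unmanipulated ligament held no class II call either, with 0% and 0.161% of all probes called and no class II probe at an unadjusted p under 0.05.

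The groups could be placed in order within a dye by their mean log2 level. On RT1-Bb A_44_P500803 the order in Cy5 was severed day 2 (10.79), severed day 7 (10.50), severed day 14 (10.21), severed day 10 (9.81), sham day 4 (8.82), sham day 1 (8.60), unmanipulated (8.28) and fibroblasts (6.62). The places of day 2 here and on the other probes follow the file headers. By the labels the day 2 samples in Cy5 are sham, so the top place (10.79) may be that of sham ligament. The columns named sham day 2, which the headers put in Cy3, had a mean of 9.58 on this probe. Of the 7 steps 4 were wider than the larger SD of the neighbours, the widest being from unmanipulated to fibroblasts and from severed day 10 to sham day 4. On RT1-Db1 A_44_P130513 severed days 7, 2 and 10 (11.59, 11.56 and 11.53) did not differ beyond their spread. Severed day 14 (11.08) came next, then unmanipulated and sham days 1 and 4 (10.40, 10.37 and 10.32), which did not differ beyond their spread either, and then fibroblasts (7.38). For RT1-Da A_44_P991532 only the step from severed day 2 (10.22) to fibroblasts (7.07) exceeded the larger SD in Cy5. RT1-Ba A_44_P194167 had its only such step from unmanipulated (6.97) to fibroblasts (5.88), and Cd74 had none in 7 steps, with SDs up to 3.50 where unread spots fell into a group. In Cy3 the steps exceeded the larger SD for RT1-Da in 2 of 5, from sham day 7 (13.01) to sham day 14 (12.39) and on to sham day 10 (12.00), and in none for the other 4 probes. The 3 sham day 7 columns lay unusually close together and may be 1 sample.

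On their brightest probes, no pair of the 5 genes was shown to deviate together from sample to sample. Over 48 to 53 ligament samples, deviations from the group mean of the brightest probe of each gene had Pearson r from -0.21 to 0.33 in the 10 pairs of genes. The pair with the highest r was Cd74 and RT1-Db1, with r = 0.33 (permutation p = 0.084, adjusted p = 0.69) and Spearman rho = 0.26 (permutation p = 0.10, adjusted p = 0.43), and r = 0.30 without the 2 farthest samples. With misread row stretches left out, r for this pair was -0.0844 over 37 samples. Cd74 with the dimmer RT1-Db1 probe A_44_P130516, a pair that was not tested, had r = 0.51 over 52 samples. None of the 10 pairs passed, with a smallest adjusted p of 0.69 for r and 0.43 for rho in the permutation test, and of 0.30 for r in Cy5 samples alone. The lowest was RT1-Da with RT1-Bb, at r = -0.21 (permutation p = 0.48) and rho = -0.30 (permutation p = 0.075), and r = -0.49 without the 2 farthest samples. Cd74 values at the floor enter these correlations. Of 15927 other named genes, those whose log2 values followed the mean deviation of the members most closely were Sec11a (r = 0.68), Rdx (0.67), Hdlbp (0.63), Itpa (0.63) and Git2 (0.63), over 49 to 53 ligament samples that share arrays and array regions. The listed genes of antigen presentation and macrophages had r from -0.30 (RT1-DOa) to 0.39 (Cd68). Of macrophage markers Lyz2 had 0.39 and C1qb 0.36. Lower values were those of C1qc (0.16), Aif1 (0.15), Cd14 (0.145), Csf1r (0.13), Mrc1 (0.07), Cd163 (0.06) and C1qa (0.03). Of presentation genes RT1-DMa had 0.25, B2m 0.06, Ciita 0.04, RT1-DOb -0.12, Ctss -0.14 and Ctsl -0.21.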

How the data were processed

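Per the file headers, the authors deposited 1 intensity per spot and sample, namely the median spot brightness less its local background in 1 scanner channel, and a flag per spot. The deposited series matrix values are on a log2 scale, with column medians of 6.37 to 7.78. Their centring and normalization are not given in the sources used here, and they were used as an alternative only. No normalization between columns is stated for the intensities. The signal over background and the number of arrays limit the precision.

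Of 44289 spots, 2917 control spots were left out. In windows of 500 spots in table order, values of a column were set missing where the column's correlation with the others of its dye was under 0.5 of the typical value, and 4 of 72 columns were left out whole. Intensities were quantile-normalised, set to at least 50 and logged (log2), and probes above 100 in at least 3 samples were tested. The fit had a mean per group and the array as a random block (estimated correlation 0.301), as limma's lmFit, duplicateCorrelation and eBayes give it (R 4.3.3, limma 3.58.1), with Benjamini-Hochberg adjustment over all 40984 probes and a threshold of 0.05. It was tested on simulated data. Correlations used 100000 permutations within groups.

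Sham day 7 columns were averaged to 1 sample, since their median absolute differences (0.15 to 0.21) were below those of every other ligament group, although their correlations (0.53 to 0.87) were not higher. Severed and sham samples of the same number and array deviated together (r from 0.21 to 0.798 in 22 of 22 pairs). On day 4, 1 pair of the same number on different arrays had r = 0.396. The 1 pair of different numbers on the same array had r = 0.339. Pairing by number and by array could therefore not be told apart, and the random block takes up the array only. Samples were grouped by their labels, and the labels' protocols describe separate animals. Probes were named by accession, gene identifier or symbol through a RefSeq gene table of assembly GRCr8, which named 18507 probes (45.1%), and its promoter table gave the sequences.

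All probes of the 5 genes are named with values. Of the other lists, at most 6 genes past the threshold per comparison are named by size of difference, and Ciita, RT1-DMa, RT1-DMb, Ctss, Ptprc, Cd68 and B2m beside the counts. Some genes of the lists are not reported here by name. The members and lists were chosen with earlier results of these data known. A setting that also leaves out misread stretches of 86 neighbouring spots of an array row was added after the Cd74 values had been seen. Other alternatives concerned normalisation, dye term, windows, floor, filter, flags, blocks, day 2, the series matrix and each replicate left out.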

Additional observations from a re-analysis of the deposited data

Results flagged for a closer look

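Of 104 sets of values (1 probe in 1 group of 4 or 5 samples), 22 held a sample far from the others by Dixon's ratio. Chance flags about 1 set in 20 for normally spread values, but some sets held values at the floor. A set with all but 1 sample at the floor is flagged however small the gap, as with 51 against 50. The 22 sets can therefore not be held against that rate. On Cd74 the flagged samples were severed and sham day 10 replicate 4, both at 50 and on 1 array, against next values of 3747 and 5824. The other was sham day 14 replicate 1, at 50 against 3148. All 3 lay in a misread row stretch.

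Fibroblast column 1 stood apart on both RT1-Da probes, at 8856 and 4272 with next values of 129 and 64 and in a misread row stretch, and on RT1-Bb A_44_P552452, at 44115 with a next value of 84. Fibroblast column 5 stood apart on RT1-Ba A_44_P194167 at 112, the others being at the floor. In the ligaments, RT1-Da A_44_P367688 was low in severed day 2 replicate 2 (182) and high in severed day 14 replicate 5 (1205). RT1-Da A_44_P991532 was low in severed day 2 replicate 3 (50) and severed day 10 replicate 5 (2760).

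RT1-Bb A_44_P552452 was low in unmanipulated replicate 2 (50 against 720) and in severed day 10 replicate 4 (61 against 681), 2 ligaments that read 562 and 1093 on A_44_P500803. A_44_P500803 was high in sham day 4 replicate 4, at 576 against 425.

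RT1-Ba A_44_P194167 was high in sham day 2 replicate 3, at 1100 against 241. RT1-Ba A_44_P128248 read 483 in unmanipulated replicate 1, and 433 and 400 in severed and sham day 2 replicate 5, which share an array. Against neighbours at the floor it read 74 in severed day 1 replicate 5, 51 in sham day 10 replicate 2 and 95 in sham day 14 replicate 1, none of them above background. RT1-Db1 A_44_P139882 read 53 in severed day 14 replicate 1, not above background, where the other 4 were at 50.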

How the results depend on the processing

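The comparisons were repeated under 17 other settings and 59 that each left out 1 replicate, as far as a setting could give a value. The correlations were repeated under 1 other setting, the Cy5 samples alone. No called class II difference changed sign, but several medians over the 10 probes did. The count of class II probes called in fibroblasts against unmanipulated ligament was between 4 and 6 under every setting. Their median difference there was -0.709 with a floor of 200, and with 1 replicate left out it ranged from -3.04 (without fibroblast column 1) to -1.53. For severed minus sham ligament, 0 class II probes passed under any setting. The cause of the changes below was not tested.

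Median scaling gave class II medians for severed minus sham of -1.78 (day 1), 1.08 (day 2), 2 (day 7) and 1.95 (day 14), where the main values were -0.0479, -0.13, 0.088 and -0.00882. It gave -0.713 for severed day 10 minus unmanipulated (main value 0.584) and -1.12 for sham day 14 minus day 10 (0.122). It moved the median of all probes to between -0.222 and 0.301 in the severed minus sham differences of single days, and quantile normalisation within each dye to between -0.733 and 0.662. The series matrix gave 2.04 for severed minus sham on day 7, 2.09, -0.909 and -1.13 for severed days 7, 10 and 14 minus unmanipulated (0.853, 0.584 and -0.0781), and -0.819 for sham day 4 minus day 1 (0.325), with medians over all probes from -1.05 to 1.38 across comparisons. With all 72 columns kept severed day 7 minus unmanipulated was -0.525, and with flagged spots missing sham day 4 minus day 1 was -0.745.

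For severed day 7 minus unmanipulated 0 class II probes were called, and under some settings 1 was, but not the same one. With median scaling (-7.1) or all 72 columns (-5.58) it was Cd74, lower. With quantile normalisation within each dye (2.51) or the series matrix (3.83) it was RT1-Bb A_44_P500803, higher. These 2 probes were both called with misread row stretches left out, a setting added after seeing the data. For severed day 10 minus unmanipulated, where 0 were called, 1 was called with quantile normalisation within each dye, no array block, or 3 sham day 7 samples, and 2 without misread row stretches. With 1 replicate left out this count was 0 to 1, and it was 1 without unmanipulated replicate 2. The count of severed day 14 went from 1 to 0 with median scaling, all 72 columns or flagged spots missing. In the series matrix the count stayed at 1, but the RT1-Bb call was lost (1.03, limma adjusted p = 0.18). Cd74 was called lower there instead (-1.82, limma adjusted p = 0.045). From day 1 to day 4, 1 probe was called in severed ligament with all 72 columns kept and 1 in sham ligament with the series matrix.

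With the replicate block, which could be fitted for severed minus sham only, the dye-balanced class II median was -0.0842 with 0 of 10 probes called, and no class II call changed. Over all probes 0 passed with the replicate block, against 4 in the main fit, which held day 7 and all groups.

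Counts over all probes moved by over 1.5 times. They ranged over the settings from 0 to 180 for the dye-balanced mean (4), 0 to 720 for sham day 1 (0) and 11 to 1892 for sham day 4 (66) against unmanipulated, 37 to 1914 for severed day 7 (87), 402 to 8648 for day 10 (1503) and 211 to 5674 for day 14 (1279). They ranged from 9 to 3027 from severed day 1 to 4 (133), 45 to 3157 from severed day 10 to 14 (579), 35 to 4305 from sham day 1 to 4 (98), 60 to 2324 from sham day 10 to 14 (1588) and 1726 to 11897 for fibroblasts (4099). Of the calls on severed days 10 and 14, 33.5% and 48.5% were higher, against 14.1% and 24% with median scaling and 42.2% and 9.01% with the series matrix. For fibroblasts 50.3% were higher, against 90.9% with the series matrix. Probes near background are limited by their signal, since values at the floor have no order.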
